A study of Mus musculus with 6 samples.

Results

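The creatine kinase genes and the genes that supply their substrate were followed in whole male mouse embryos with and without functional Smchd1. The 7 genes were taken by symbol from the table of 24207 loci, of which 23097 carry a symbol, and each had 1 row. They were *Ckb*, *Ckm*, *Ckmt1* and *Ckmt2* (creatine kinases), *Gatm* and *Gamt* (creatine synthesis) and *Slc6a8* (creatine uptake). The set was chosen by the mutant and wildtype FPKM of *Ckb* in these embryos, which were already known, so the differences between genotypes are given as a description and not as a test.

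All 6 embryos were male, were dissected at embryonic day 9.5 (E9.5) and were sequenced as total RNA. The wildtype group held 3 *Smchd1*+/+ embryos and the mutant group 3 *Smchd1*MommeD1/MommeD1 embryos. MommeD1 is a chemically induced nonsense allele of *Smchd1*, present throughout the embryo, and yolk sac was used for genotyping. The labels give the background of both groups as C57Bl6/J x FVB/n, whereas the study's text describes a backcross to another strain, so the background is uncertain. The unit is FPKM, fragments scaled to transcript length and to the number of mapped fragments. Each locus has a single pooled FPKM for the mutants and another for the wildtype, as the authors' mean, so no value carries a spread between embryos. Sequencing depth cannot be read from these values. For *Smchd1* itself (mm10 chromosome 17, bases 71344415 to 71475343) the wildtype value was 34.03 FPKM and the mutant value 2.12 FPKM, 16.1-fold lower, which is the direction the genotype labels give.

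Creatine kinases move a phosphate group between ATP and creatine, and the phosphocreatine they make is a store of energy for cells whose demand changes quickly, such as neurons and muscle. The brain type Ckb and the muscle type Ckm work in the cytosol. Ckmt1, found in many tissues, and Ckmt2, found in heart and skeletal muscle, sit between the mitochondrial membranes and charge creatine with newly made ATP. Creatine is made from arginine and glycine by Gatm, and its precursor is then methylated by Gamt, or it is taken up from outside by the transporter Slc6a8.

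*Ckb* was the most abundant of these genes and *Ckm*, its cytosolic relative, among the least, so the 250 bases before the RefSeq start of *Ckb* and of *Ckm* (GRCm38.p6) are shown here. They are written 5′ to 3′ on the strand of the gene, with capitals marking the TATA box letters TATAAA or their variant TATATAA, and the CCAAT box, on either strand. *Ckb* lies on the minus strand, with its window at chr12:111672339-111672588, and *Ckm* on the plus strand, with its window at chr7:19410844-19411093.
Ckb: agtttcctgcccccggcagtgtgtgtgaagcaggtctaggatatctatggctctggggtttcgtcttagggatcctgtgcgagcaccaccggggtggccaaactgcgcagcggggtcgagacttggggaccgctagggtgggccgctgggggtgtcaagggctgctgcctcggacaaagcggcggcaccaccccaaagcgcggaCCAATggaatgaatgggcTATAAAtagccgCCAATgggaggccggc
Ckm: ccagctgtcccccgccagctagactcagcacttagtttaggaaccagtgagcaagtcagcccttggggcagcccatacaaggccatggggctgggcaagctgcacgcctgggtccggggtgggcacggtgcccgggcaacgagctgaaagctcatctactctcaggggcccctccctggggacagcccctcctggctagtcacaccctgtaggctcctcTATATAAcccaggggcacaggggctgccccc
The *Ckb* window held TATAAA starting 28 bases before the start site, with CCAAT at 46 and 16 bases before it. The *Ckm* window held TATATAA 31 bases before the start and no CCAAT. Of 32817 RefSeq promoter windows of this length, 12.4% hold TATAAA on either strand, 3.04% hold TATATAA and 33.8% hold CCAAT, and the first 2 of these can overlap in a sequence. The letters CANNTG, the E-box that muscle and neuronal bHLH factors can bind, occurred 1 time in the *Ckm* window and not in that of *Ckb*, and 66.2% of all windows hold them. Promoters were listed for 6 of the 7 genes, the exception being *Slc6a8*.

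*Ckb* was by far the most abundant of the 7 genes in both genotypes and the 1 that differed by at least 1.5-fold among the 4 at 1 FPKM or more. Of 11980 named loci at that level, 4.27% did so in either direction. Mutant embryos had 217 FPKM and wildtype embryos 94.8 FPKM, 2.29-fold higher in the mutants. The difference was 1.196 on the log2 scale after 0.1 FPKM was added to each value, a pseudocount used for all log2 differences here. The gain of 123 FPKM from wildtype to mutant was the 28th largest among named loci averaging 1 FPKM or more. The locus spans chromosome 12 of mm10 from 111669355 to 111672338 and holds no other entry, and GENCODE M21 has no gene overlapping *Ckb* on either strand. Its coding transcript has 8 exons and 1143 coding bases.

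A difference of this size was uncommon among abundant loci. Among the 11980 loci, 3.2% were at least 1.5-fold higher in mutants and 1.08% at least 1.5-fold lower, and 0.86% were at least 2-fold higher. The middle 90% of these loci lay between -0.30 and 0.44 on the log2 scale, with a median of -0.0075. *Ckb* ranked 65th by its difference among them. Of the 830 loci averaging 100 FPKM or more, 1.45% were at least 1.5-fold higher in mutants and 0.964% at least 1.5-fold lower, and *Ckb* ranked 4th, after *Mir3096* and *Snora30*, small RNA genes listed at 0 in wildtype, and the embryonic globin *Hbb-y* (4191 and 1787 FPKM). Since *Ckb* was chosen with its difference in view, these ranks describe it and test nothing.

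**Figure D1:**
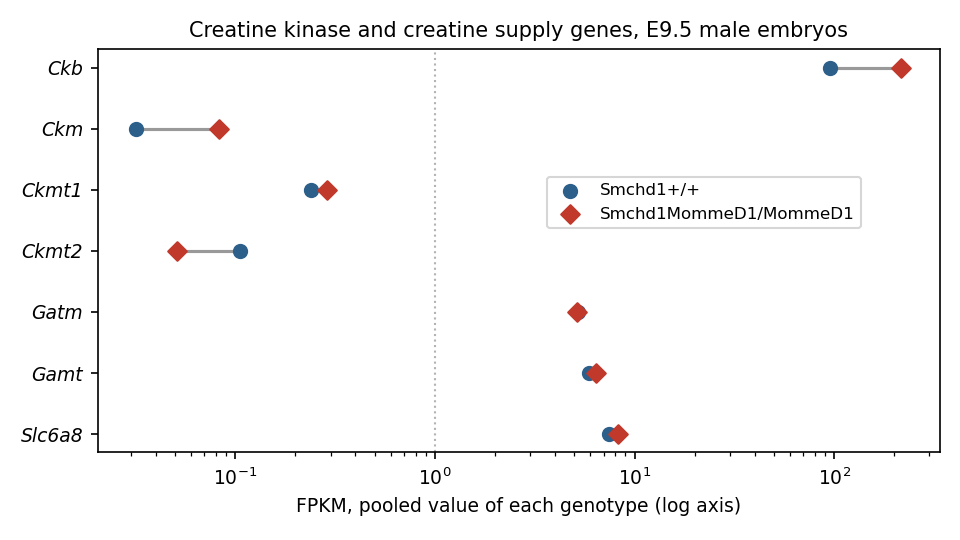
FPKM of the 7 genes on a log axis, with 1 point for the pooled value of each genotype (circles, Smchd1+/+; diamonds, Smchd1MommeD1/MommeD1) and a dotted line at 1 FPKM. Ckb lies at 94.8 and 217 FPKM, the supply genes lie between 5 and 10 FPKM with nearly coincident points, and Ckm, Ckmt1 and Ckmt2 lie below 1 FPKM.

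The other kinases were all below 1 FPKM. *Ckmt1*, the mitochondrial form of many tissues, had 0.287 FPKM in mutants against 0.238 FPKM in wildtype. The sarcomeric form *Ckmt2* was at 0.0508 and 0.106 FPKM, and the muscle form *Ckm* at 0.0824 and 0.0318 FPKM. None of the 3 reached the mean of 1 FPKM used as a filter, and they add to 0.420 FPKM in mutants and 0.376 FPKM in wildtype, so no fold change is read from them. *Ckb* made up 99.8% of the FPKM summed over the 4 kinases in mutants and 99.6% in wildtype. The libraries do not record the strand. The GENCODE spans of *Ckm*, *Ckmt1* and *Ckmt2*, introns included, are each overlapped on the opposite strand by another gene (*A930016O22Rik*, *Strc* and *1700119I11Rik*). Reads from any shared exon bases could not be told apart, but whether exons overlap was not examined. *Strc* was listed at 0 in both genotypes.

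Many muscle genes were well represented where the muscle kinases were not. The heart muscle list summed to 1148 FPKM in mutants and 1335 FPKM in wildtype over 15 genes, led by the atrial myosin light chain *Myl7* (317 and 425 FPKM). The skeletal muscle list summed to 90.1 and 74.9 FPKM over 15 genes, with *Acta1*, the skeletal alpha actin, the most abundant by the mean of both genotypes (23.9 and 27.0 FPKM) and the intermediate filament *Des* above it in mutants (24.8 and 20.4 FPKM). Of the 15 skeletal muscle genes 11 averaged 1 FPKM or more, so part of that list was scarce too. Many messages for the contractile apparatus were present at E9.5 while those for *Ckm* and *Ckmt2* were each at 0.106 FPKM or less.

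Reads of *Ckb* could in principle be shared with its relatives. Over aligned coding bases *Ckb* was 76.5% identical to *Ckm*, 68.1% to *Ckmt1* and 67.7% to *Ckmt2*, and the longest identical run between the *Ckb* transcript and any of these was 20 bases. GENCODE M21 also has the pseudogenes *Ckb-ps1* and *Ckb-ps2*, 88.9% and 91.9% identical to the *Ckb* coding sequence over aligned bases. Their longest identical runs with *Ckb* were 51 and 53 bases, shorter than the reads that the methods describe. Identical runs do not show how reads with mismatches were placed, and whether *Ckb* and the pseudogenes shared reads was not tested. No value for either pseudogene was used.

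The genes of creatine supply were at modest and similar levels, and none differed by 1.5-fold between genotypes. *Gatm*, whose product makes guanidinoacetate, had 5.18 FPKM in mutants against 5.23 FPKM in wildtype, a log2 difference of -0.01. *Gamt*, whose product methylates guanidinoacetate to creatine, was at 6.39 and 5.89 FPKM, a log2 difference of 0.11. *Slc6a8* was at 8.24 and 7.46 FPKM, a log2 difference of 0.14. Of 2235 loci averaging 5 to 10 FPKM, 3.76% differed by at least 1.5-fold in either direction. *Gatm* and *Slc6a8* are each alone in their locus, on chromosome 2 from 122594473 to 122611277 and on the X chromosome from 73673133 to 73682500. The entry for *Gamt* belongs to a merged locus of 47 entries on chromosome 10 from 79697305 to 80369637, whereas GENCODE places the gene itself from 80258151 to 80261012, so its value rests on how reads were divided within that locus.

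The order of levels was the same in both genotypes for the 4 genes above 1 FPKM, with *Ckb* first, then *Slc6a8*, *Gamt* and *Gatm*. The last 3 lay within 1.59-fold of each other in either genotype, and without values per embryo it cannot be said whether they differ. The ratio of *Ckb* to *Slc6a8*, which no scaling between genotypes alters, was 26.4 in mutants and 12.7 in wildtype. That of *Ckb* to *Gatm* was 41.99 and 18.1. Both ratios restate the FPKM of *Ckb* by which the set was chosen.

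**Figure D2:**
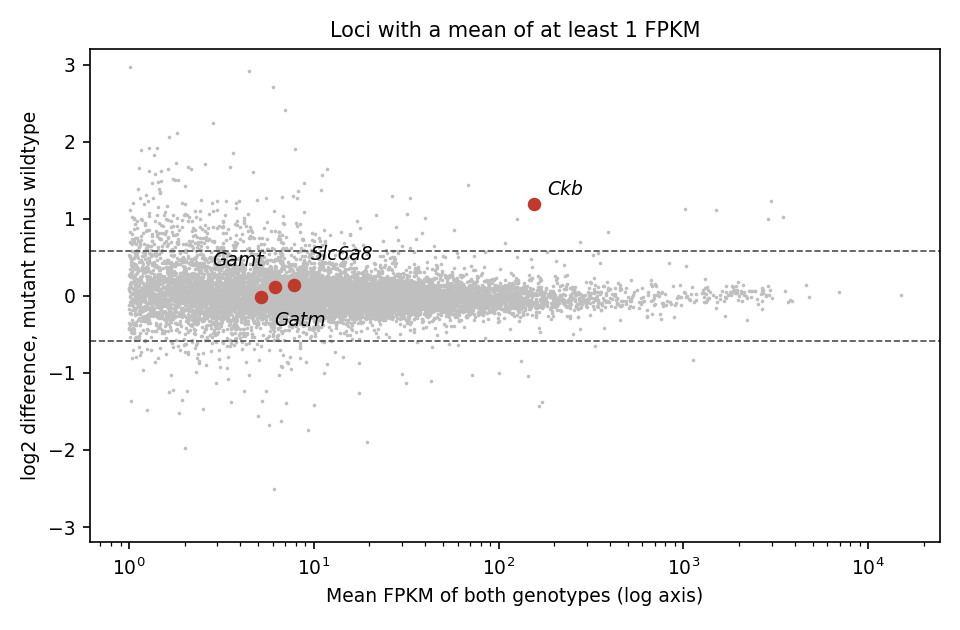
Log2 difference between genotypes (mutant minus wildtype, 0.1 FPKM added) against the mean FPKM on a log axis, with 1 grey point per locus at 1 FPKM or more, dashed lines at 1.5-fold and the 4 creatine genes above that level in red; 9 loci beyond 3.2 are not drawn. Ckb, at 1.196, lies above the band of loci of like abundance, and Gatm, Gamt and Slc6a8 lie inside it near 0.

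The steps on either side of the creatine genes are given as counts, to be set beside the 4.27% of all loci past 1.5-fold in either direction. With lists this short, counts at or near 0 are close to that share, and nothing particular to the lists is read from them. Methyl groups for Gamt come from S-adenosylmethionine, and of 16 genes for methyl donor supply 12 reached 1 FPKM, none of which differed by 1.5-fold (median log2 difference -0.061). The most abundant was *Ahcy*, which breaks down the by-product of methylation (207 and 211 FPKM). Of 9 genes for arginine supply, 8 reached 1 FPKM. Among these 1 was at least 1.5-fold higher in mutants and 1 at least 1.5-fold lower. In a list this short that exceeds the share over all loci, but the excess was not tested. *Ass1*, an enzyme that makes the precursor of arginine, was higher in mutants (6.98 and 4.16 FPKM). The most abundant, *Oat*, was at 59.5 and 49.3 FPKM.

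None of the 10 adenylate and nucleoside diphosphate kinases at 1 FPKM or more differed by 1.5-fold, and *Nme2*, the most abundant, was at 728 and 720 FPKM. The same held for the 6 genes of mitochondrial ATP export, led by the adenine nucleotide carrier *Slc25a5* (523 and 527 FPKM). Of 8 ion pump ATPases at 1 FPKM or more, which use the ATP that creatine kinases restore, *Atp1b2*, a sodium pump subunit, was 1.69-fold higher in mutants (1.996 and 1.18 FPKM). *Atp2a2*, the most abundant, was at 116 and 124 FPKM. Of 18 other Slc6 transporters 3 reached 1 FPKM, and none of these differed by 1.5-fold. The most abundant was the taurine transporter *Slc6a6* (20.9 and 24.99 FPKM), and *Slc6a18* was listed at 0 in both genotypes.

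Markers of several cell types also differed between genotypes, and their counts past 1.5-fold stand beside the 3.2% of all loci that were higher and the 1.08% that were lower. Where a list has 1 gene or none past 1.5-fold, nothing is read from its count. Of 16 neuron markers at 1 FPKM or more, 14 were at least 1.5-fold higher in mutants and none lower, with a median log2 difference of 1.33. Over all 20 genes of the list the summed level was 281 FPKM in mutants and 129 FPKM in wildtype, and no gene was listed at 0. The most abundant was the neuronal tubulin *Tubb3* (99.9 and 37.0 FPKM). The largest differences were those of the adhesion molecule *Cntn2* (4.76 and 0.925 FPKM) and the bHLH factor *Nhlh2* (5.76 and 1.53 FPKM). *Ckb* was above *Tubb3* in both genotypes. Of the 16 markers 9 had a larger log2 difference than *Ckb*. The largest gain in FPKM among the markers was 63.0, for *Tubb3*. Gains in FPKM depend on the level of a gene, and *Ckb* was chosen by its FPKM, so its gain is not weighed against theirs.

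Of 10 neural progenitor markers 1 was at least 1.5-fold higher and none lower, with a median log2 difference of 0.33 and a summed level of 735 and 530 FPKM. That gene was *Fabp7*, a fatty acid binding protein of radial glia (43.1 and 20.6 FPKM), and the most abundant was the intermediate filament *Vim* (410 and 279 FPKM). None of the 6 neural crest markers differed by 1.5-fold (median -0.11; summed level 43.8 and 48.2 FPKM), and *Ets1* was the most abundant of them (19.2 and 22.0 FPKM).

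Of 13 erythroid entries 11 were at least 1.5-fold higher in mutants and none lower (median 0.97). Their summed level was 16192 and 7624 FPKM, led by the embryonic globin *Hba-x* (4602 and 2274 FPKM). *Hba-a1* and *Hba-a2* share 2 entries whose reads cannot be fully told apart. The largest differences were those of *Hbb-y* and of an entry shared by *Hba-a1* and *Hba-a2*. Of 11 skeletal muscle markers at 1 FPKM or more, 5 were higher and none lower (median 0.52, but 0.12 at a mean of at least 5 FPKM), and the largest differences were those of the embryonic myosin *Myh3* (2.67 and 0.876 FPKM) and the differentiation factor *Myog* (3.98 and 1.67 FPKM). Of 15 heart muscle markers 1 was higher and none lower (median -0.20), namely *Pln*, which restrains the calcium pump (2.21 and 1.19 FPKM). None of 5 smooth muscle markers differed by 1.5-fold (median -0.18), with a summed level of 209 and 255 FPKM over the 6 genes of that list, led by *Acta2* (98.2 and 132 FPKM).

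Of 8 visceral endoderm markers at 1 FPKM or more, 3 were higher and 5 lower (median -0.77, but -0.0003 at a mean of at least 5 FPKM), with a summed level of 38.3 and 46.5 FPKM over 14 genes. *Apoa2* was the highest of them relative to wildtype (2.77 and 0.913 FPKM), followed by *Afp*, the most abundant by the mean of both genotypes (14.7 and 8.10 FPKM), whereas *Rbp4* was above it in wildtype (6.46 and 11.8 FPKM). *Ttr* (2.48 and 7.51 FPKM) and *Apom* (0.938 and 2.37 FPKM) were the lowest. None of 14 housekeeping genes differed by 1.5-fold (median 0.061), among them *Ppia*, the most abundant (3784 and 3948 FPKM). The lists were drawn up with earlier results of these data known, and their part in the difference of *Ckb* was not tested. In whole embryos a different number of cells of a type and a different amount of RNA per cell cannot be told apart.

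**Figure D3:**
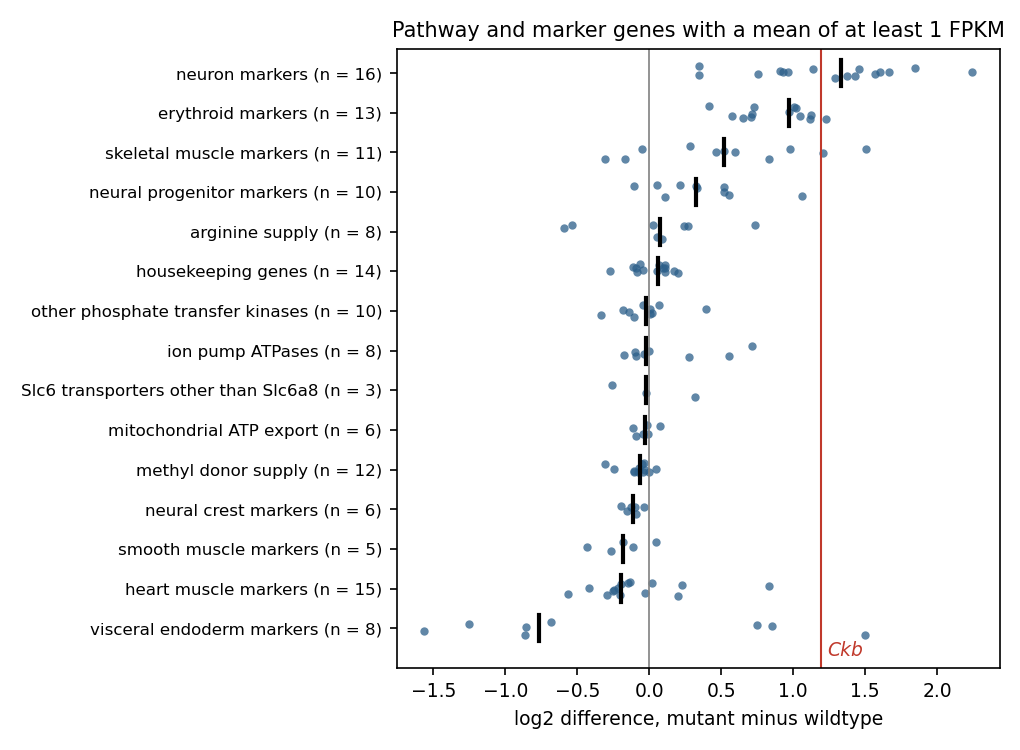
Log2 difference between genotypes for each gene of 15 lists with a mean of at least 1 FPKM (blue points, spread vertically so that they can be seen), with the median of each list as a black bar and Ckb as a red line at 1.196. Neuron and erythroid markers lie mostly to the right, with medians of 1.33 and 0.97, and the lists for methyl donors, phosphate transfer, ATP export and ion pumps have medians within 0.1 of 0.

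The entries near *Ckb* on chromosome 12 are given as a description. Within 100 kb of the *Ckb* locus the table has 7 other entries, of which 6 reached 1 FPKM. None of these differed by 1.5-fold (log2 differences from -0.12 to 0.20). Since 4.27% of all loci at that level did so in either direction, nothing is read from the absence of such entries among 6. The nearest, *Trmt61a*, a tRNA methyltransferase subunit, was at 13.2 and 14.4 FPKM. *Klc1*, a kinesin light chain, had the largest difference, 0.20 (30.7 and 26.7 FPKM). Of 74 entries at 1 FPKM or more within 100 kb of any of the 7 loci 2 were higher and none lower, against 4.27% of all loci at that level past 1.5-fold in either direction, so nothing is read from this count. Both were in the merged locus of *Gamt*, and 40 of the 74 entries lay in or near that locus. Distance was counted from the ends of its 672333 bases, so some entries lie further than 100 kb from *Gamt* itself. The 2 higher entries were *Prtn3*, a protease of myeloid cells (2.14 and 0.783 FPKM), and *Apc2*, a relative of *Apc* expressed in the nervous system (2.85 and 1.36 FPKM). Around *Slc6a8* on the X chromosome, 5 entries reached 1 FPKM and lay between -0.15 and 0.44, the highest being the phosphatase *Dusp9* (47.2 and 34.7 FPKM).

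**Figure D4:**
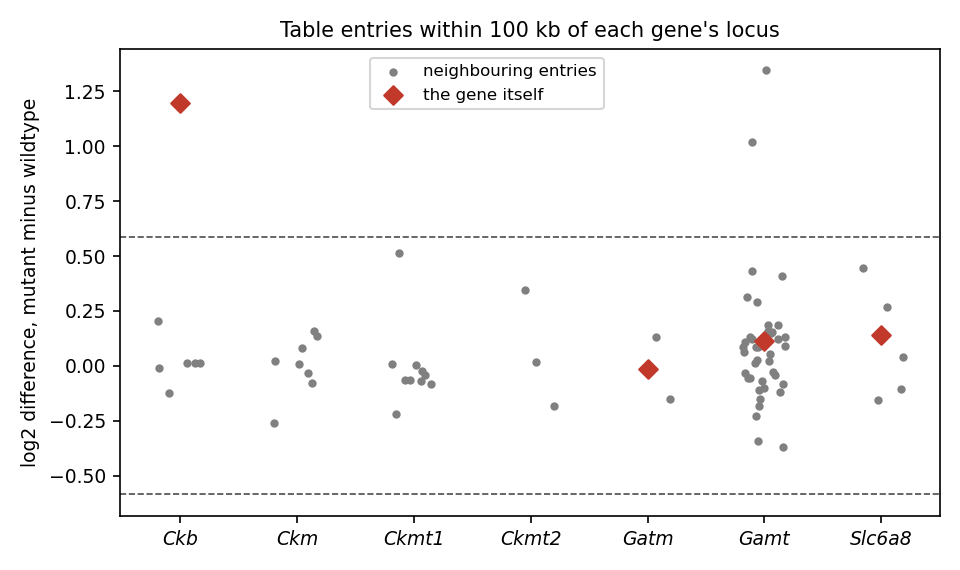
Log2 difference between genotypes for the table entries within 100 kb of each creatine gene's locus (grey points, mean of at least 1 FPKM, spread sideways so that they can be seen) and for the gene itself where it reached 1 FPKM (red diamonds), with dashed lines at 1.5-fold. Ckb lies at 1.196 while its 6 neighbours lie between -0.12 and 0.20. For Gamt the distance is counted from the ends of its merged locus, so some points lie further than 100 kb from the gene.

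The loci closest to *Ckb* in the levels of both genotypes, by distance on the log2 scale, were *Ndn*, an imprinted gene expressed in neurons (169 and 84.3 FPKM), *Igdcc3*, a cell surface protein of the immunoglobulin superfamily (174 and 125 FPKM), and *Cdkn1c*, an imprinted inhibitor of the cell cycle (148 and 104 FPKM). With 2 values per gene this is a likeness of level and of difference only. All 3 were less different between genotypes than *Ckb*, with log2 differences of 0.9997, 0.47 and 0.51.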

How the data were processed

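Reads of 6 E9.5 male embryos were aligned by the authors to mm10 with TopHat2 2.0.6 and Bowtie2 2.0.2, and genotypes were compared with Cufflinks and Cuffdiff 2.0.2, per the submitters' processing notes. The deposited FPKM values are 1 per genotype and locus, and those of the mutant and wildtype columns are used. The authors' own comparison in the same table (fold changes, a test score, p-values and q-values) was not used or printed. The table holds no counts, and its low FPKM values could not be turned into whole reads, so the depth is unknown.

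Log2 differences were computed with 0.1 FPKM added. Loci with a symbol and a mean of at least 1 FPKM were counted as past a threshold at 1.5-fold. Because this filter uses the mean of both genotypes, a gene can pass it while under 1 FPKM in 1 of them. *Cntn2*, *Myh3*, *Apoa2*, *Apom* and *Prtn3* passed in this way, through the genotype in which they were higher. The embryos were separate samples, but the table gives the authors' mean per genotype and no value per embryo, so no test was run here. Locus starts were counted from 1. Loci without a symbol numbered 1110 and held 36.8% of the FPKM in mutant and 39.3% in wildtype. Named genes were the 7 genes, the most abundant member and the 2 largest differences in each direction past 1.5-fold of each of 15 lists, members listed at 0, the 3 loci closest to *Ckb*, and neighbours past 1.5-fold. A gene that this rule names is not reported here. *Des*, *Rbp4*, *Trmt61a*, *Klc1*, *Dusp9*, *Mir3096* and *Snora30* were named after their values were seen. The genes and lists were chosen with earlier results of these data known. Older symbols were matched through RefSeq synonyms, and all list genes matched. Promoters are those of RefSeq, and gene models and transcripts those of GENCODE M21. The counting step was tested on simulated data. Python 3.11.15, numpy 2.4.6, pandas 2.3.3, Biopython 1.88 and matplotlib 3.10.9 were used.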

Additional observations from a re-analysis of the deposited data

How the results depend on the processing

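The log2 differences of *Ckb*, *Gatm*, *Gamt* and *Slc6a8* moved by less than 0.1 in all 24 alternative values, counting 1 per gene and setting. That of *Ckb* stayed between 1.13 and 1.24. *Gatm*, near 0, was above 0 after rescaling to the same total FPKM (0.03) and after centring on loci of like GC content and transcript length (0.07). That last alternative was chosen after seeing the data. Values of the scarce kinases depended on the pseudocount. With 0.01 FPKM the difference was 1.15 for *Ckm* and -0.93 for *Ckmt2*, and with 1 FPKM it was 0.069 for *Ckm*, 0.055 for *Ckmt1* and -0.074 for *Ckmt2*. The numbers of loci past the threshold, 383 higher and 129 lower, were 219 and 75 with a pseudocount of 1 FPKM, 1051 and 450 without a filter on the mean, 111 and 56 at a mean of at least 5 FPKM, and 103 and 42 at 2-fold. Over all lists, 37 higher and 6 lower became 20 and 2 at a mean of at least 5 FPKM and 20 and 2 at 2-fold, and 12 were lower without a filter. At a mean of at least 5 FPKM the median over visceral endoderm markers was -0.0003, that over skeletal muscle markers 0.12 (0.37 with a pseudocount of 1 FPKM) and that over other Slc6 transporters -0.26. The medians over phosphate transfer kinases, ATP export genes, ion pumps and other Slc6 transporters lay near 0 and were on either side of it across the alternatives, that over ion pumps reaching 0.19 without a filter. No paired analysis was possible because the result comes from no test and 1 pooled value per genotype was used, which also prevented leaving out single embryos.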

Other observations

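Among loci averaging 100 FPKM or more, 12 were at least 1.5-fold higher in mutants, and *Ckb* was the 1 creatine gene of these. The others included globin entries for *Hbb-y*, *Hbb-bh1* and *Hba-x* and the shared entries of *Hba-a1* and *Hba-a2*. The rest were *Ndn*, *Lars2* (501 and 282 FPKM), the shared entry of *Tubb2a* and *Tubb2b* (340 and 209 FPKM), *Cotl1* (133 and 82.7 FPKM) and the small RNA genes *Mir3096* and *Snora30*. The 8 loci at least 1.5-fold lower were *Slc2a3* (93.9 and 193 FPKM), *Lin28a* (94.9 and 171 FPKM), *Psmb5* (809 and 1444 FPKM), *Ctdsp2* (259 and 409 FPKM) and the small RNA genes *Snora3*, *Snora31*, *Mir7-1* and *Mirlet7d*, the last listed at 0 in mutants. All were named after their values were seen.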
